A study of Mus musculus with 6 samples.

Results

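The 48 genes described here are interferon-stimulated genes of the mouse, among them the guanylate-binding proteins (GBP) and the immunity-related GTPases (IRG). They were taken by gene symbol from a written list, and all 48 were found among the 24589 symbols of the expression table. Transcript levels were measured by bulk RNA-seq in primary CD8+ T cells, the lymphocytes that kill infected cells and tumour cells. The cells were wild type (WT), and per the methods of the study they were purified with magnetic beads from lymph nodes and spleen of C57BL/6 mice. Cells of both groups were activated with antibodies to CD3 and CD28. The treated group of 3 libraries then received TVA (trans-vaccenic acid, a fatty acid of milk and ruminant meat) at 20 µM for 24 h, and the control group of 3 libraries received DMSO, the solvent, for the same time. The labels do not say whether the libraries of a group came from separate mice or cultures, so the p-values measure only the spread between these libraries, which may be technical.

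Interferons are secreted proteins that warn cells of infection. Type I and type III interferons act through receptors whose signal assembles a complex with STAT2 and IRF9, which binds the interferon-stimulated response element (ISRE) of promoters. Interferon-γ, the type II interferon made by activated T cells themselves, acts mainly through the gamma-activated site (GAS) of promoters. Most of the induced genes encode proteins that sense viral RNA, block viral replication or attack intracellular parasites, and many are expressed at some level in activated T cells.

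Values are TPM, a measure of transcript abundance that is scaled for length and to a fixed total per library, so levels of different genes can be compared, but sequencing depth is unknown. The 7 CD8 T cell markers found in the table, of 8 listed, had at least 30.98 TPM in every library, and their sum was 1701 to 1836 TPM with DMSO and 1947 to 1979 TPM with TVA. Of the 7, 1 (Cd3g) passed the test described below as higher and 0 as lower. The sum of 10 myeloid markers was 54.7 to 55.6 TPM with DMSO and 71.1 to 75.9 TPM with TVA. None of the 10 was listed at 0 in all libraries, 8 were higher in every TVA library than in every DMSO library, and 3 of the 8 tested passed the test as higher. The sums in the DMSO and TVA libraries were 15.1 to 16.2 and 12.2 to 14.2 TPM for 4 CD4 T cell markers, 11.3 to 14.9 and 10.7 to 11.0 TPM for 6 B cell markers, 17.1 to 17.7 and 16.7 to 18.3 TPM for 8 dendritic cell markers, and 16.0 to 17.6 and 16.9 to 18.02 TPM for 5 NK cell markers. The libraries of DMSO did not form a tight group. DMSO replicate 2 correlated at 0.9957 to 0.9964 with the TVA libraries and at 0.9929 to 0.9945 with the other DMSO libraries (Pearson's r over genes, which are not independent). Across the genes tested, transcript GC content and the log2 change with TVA were correlated at -0.401 (Spearman), and GC content and the difference between DMSO replicates 1 and 3 at 0.617. Results are therefore also given without DMSO replicate 2 and after a correction for GC content. Leaving out the control library nearest to the TVA libraries favours a difference, so calls gained that way are no added support. The part of other cell types, of GC content and of single libraries in the results was not tested.

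With TVA, 5 of the 10 GBP and IRG genes among the members rose. The 3 Oas (oligoadenylate synthetase) genes, Oasl2 and Mx2 fell, and most other members did not pass the test. Genes with at least 1 TPM in at least 3 libraries were tested with limma on log2(TPM + 1), a scale that understates the change of low genes, and a gene was called when its Benjamini-Hochberg adjusted p over all 10866 genes tested was under 0.05. Of the 48 members, 47 were tested. Ifi44 was too low, at 0.61 to 0.92 TPM. In all, 8 members rose and 5 fell. These are 17.0% and 10.6% of the 47, beside 5.28% called higher and 3.23% called lower of all genes tested. The risers were the GTPase genes Igtp, Irgm1, Iigp1, Gbp5 and Gbp4 with Samd9l, Trim21 and Sp100. The genes that fell were Oas1a, Oas2, Oas3, Oasl2 and Mx2. The 8 genes that rose had means of 21.1 to 484 TPM and rose by 13.6% to 24.1%, with adjusted p from 0.0227 to 0.0476. The 5 genes that fell had means of 1.33 to 6.70 TPM and fell by 18.4% to 41.5%, with adjusted p from 0.0208 to 0.0442. Leaving out any 1 of the 3 TVA libraries left 0 of the 47 members past the threshold, leaving out DMSO replicate 3 left 1 (Oas2), and leaving out DMSO replicate 1 left 9 of the 13. The calls over all genes tested, 925 as reported, also dropped, to 125, 102 and 113 without TVA replicates 1, 2 and 3. They were 294 without DMSO replicate 3, 945 without DMSO replicate 1 and 2242 without DMSO replicate 2.

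The direction of the members was mixed. The fitted change was above 0 in 25 and below 0 in 22 of the 47, with a median log2 change of 0.02 beside 0.04 over all genes tested. In 17 members every TVA value lay above every DMSO value, in 11 every TVA value lay below, and in 19 the groups overlapped. These 17 and 11 are 36.2% and 23.4% of the members, beside 27.3% and 11.2% of all genes tested. Without DMSO replicate 2, 12 members (25.5%) were called higher and 5 (10.6%) lower, beside 11.3% and 9.38% of all genes. The share called lower was then near that of all genes. After the GC correction, 6 (12.8%) were called higher and 9 (19.1%) lower, beside 5.35% and 4.94% of all genes. In bulk samples such as these, fewer cells of a type and less RNA per cell cannot be told apart.

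**Figure D1:**
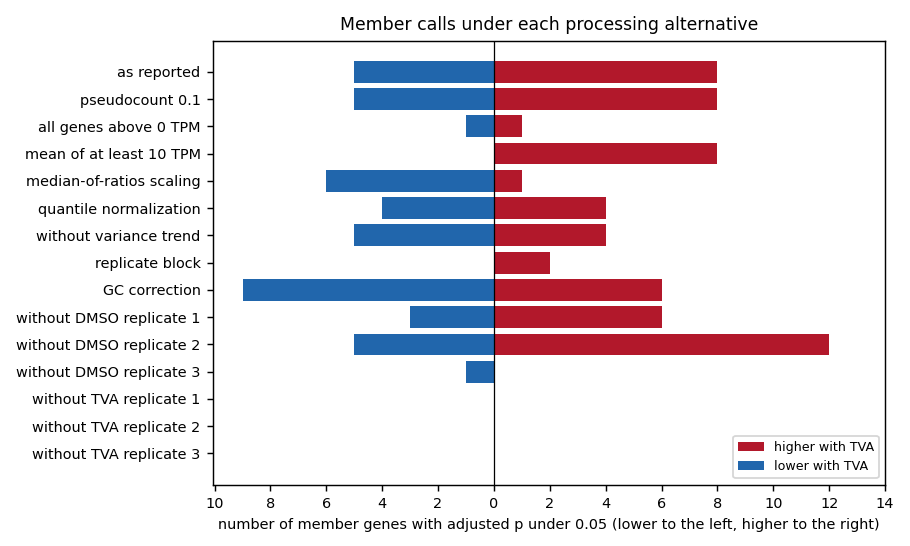
Number of members with adjusted p under 0.05 (horizontal axis, lower with TVA to the left of 0 and higher to the right) under each processing alternative (vertical axis). As reported there are 8 higher and 5 lower; without any 1 TVA library there are 0, and with median-of-ratios scaling 1 remains higher.

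**Figure D2:**
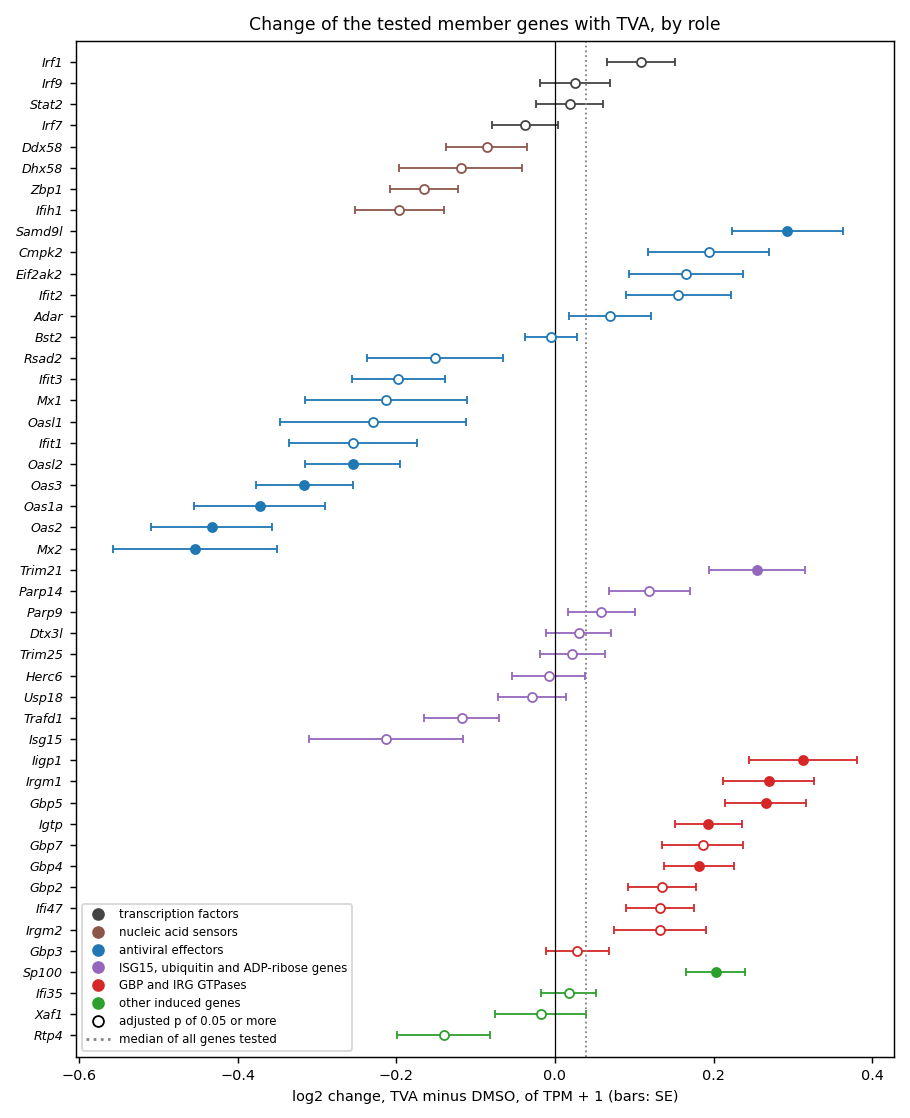
Fitted log2 change (TVA minus DMSO, of TPM + 1) of the 47 members tested, with the gene on the vertical axis, its role as colour and the standard error as bar; filled points passed the threshold and the dotted line marks the median of all genes tested. The GBP and IRG genes (red) all lie to the right of 0, and the 5 genes that fell (Mx2, Oas2, Oas1a, Oas3 and Oasl2) lie farthest to the left.

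The GBP and IRG genes encode interferon-inducible GTPases that bind the membranes around intracellular bacteria and parasites. Here the name GTPase genes is used for these genes only. Igtp, Gbp2 and Ifi47 had the 3 highest means of all members. Together, the 10 genes reached 1602, 1770 and 1682 TPM in DMSO replicates 1, 2 and 3 and 1873, 1935 and 1933 TPM in TVA replicates 1, 2 and 3, which was 60.6% to 62.2% of the summed TPM of all members with DMSO and 64.2% to 64.7% with TVA. In every TVA library the sum was higher than in any DMSO library. Of the 10 genes, 5 rose, 0 fell and 5 did not pass the test, while 5.28% of all genes tested were called higher. Their fitted changes were all above 0, from 0.03 to 0.31, with a median of 0.18 on the log2 scale. In 9 of the 10 every TVA value lay above every DMSO value, as it did in 27.3% of all genes tested. DMSO replicate 1 was the lowest DMSO library in 10 of the 10 genes and DMSO replicate 2 the highest in 8. The sums of the myeloid and of the CD8 T cell markers were also higher in every TVA library than in any DMSO library. They were at least 71.1 TPM with TVA and at most 55.6 TPM with DMSO for the myeloid markers. For the CD8 T cell markers they were at least 1947 and at most 1836 TPM. The part of either cell type in the GTPase values was not tested.

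Igtp encodes an IRG protein of the regulatory kind, which protects the membranes of the cell itself, and had the highest mean of all members. Its TPM values, here and below in the order of replicates 1, 2 and 3, were 437, 473 and 445 in the DMSO libraries and 505, 518 and 527 in the TVA libraries. All TVA values lay above all DMSO values, with a rise of 14.3% (log2 change 0.19, SE 0.042, adjusted p 0.0367). Its neighbour Irgm2, also of the regulatory kind, had TPM values of 56.7, 66.3 and 61.9 in the DMSO libraries and 66.6, 69.0 and 67.0 in the TVA libraries. The groups were separated by only 0.31 TPM, and the change did not pass the test (log2 change 0.13, SE 0.058, adjusted p 0.162). Irgm1, the other regulatory member, had TPM values of 130.9, 152 and 140.4 in the DMSO libraries and 165, 172 and 173 in the TVA libraries. The gap between the groups was 12.4 TPM, and the gene rose by 20.5% (log2 change 0.27, SE 0.058, adjusted p 0.0348).

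Iigp1 encodes an effector IRG that accumulates on the vacuoles of parasites. It had TPM values of 91.1, 109.8 and 105.6 in the DMSO libraries and 122.8, 128.95 and 128.5 in the TVA libraries. DMSO replicate 1 was the lowest library and all TVA libraries were above all DMSO libraries, with the largest fitted rise of any member (24.1%, log2 change 0.31, SE 0.069, adjusted p 0.0371). Ifi47, a further IRG gene, had TPM values of 282, 311 and 293 in the DMSO libraries and 324, 325 and 323 in the TVA libraries. The groups did not overlap, but the change did not pass the test (log2 change 0.13, SE 0.043, adjusted p 0.0881).

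Among the GBP genes, Gbp5, whose product promotes inflammasome assembly, had TPM values of 98.6, 110.4 and 109.1 in the DMSO libraries and 124.05, 130.8 and 127.7 in the TVA libraries. The gap between the groups, 13.7 TPM, was wider than the range within either group, and the gene rose by 20.3% (log2 change 0.27, SE 0.051, adjusted p 0.0259). Gbp4 had TPM values of 92.2, 99.7 and 97.8 in the DMSO libraries and 105.6, 111.3 and 112 in the TVA libraries. It rose by 13.6% (log2 change 0.18, SE 0.044, adjusted p 0.0476), the call closest to the threshold of all 13. Gbp2, the most abundant GBP gene, had TPM values of 349, 381 and 361 in the DMSO libraries and 391, 407 and 401 in the TVA libraries. Its groups did not overlap, and it did not pass the test (log2 change 0.13, adjusted p 0.0855). Gbp7 and Gbp3 also missed the threshold, with log2 changes of 0.19 and 0.03 and adjusted p of 0.0597 and 0.649. Gbp3 was the 1 of the 10 genes whose groups overlapped. Of their relatives on the pathway lists, Gbp6, Gbp8, Gbp9 and Gbp10 did not pass the test (adjusted p 0.080, 0.0598, 0.195 and 0.355). Tgtp1, Tgtp2 and Gm12250 did not pass it either (adjusted p 0.769, 0.322 and 0.317). The log2 changes of these relatives lay between 0.02 and 0.18. Gbp11 fell (adjusted p 0.0219), and Gbp2b was too low to be tested. These relatives were named after their values were seen.

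The GTPase calls depended on the scaling and on single libraries. Leaving out DMSO replicate 3 or any 1 TVA library left 0 of the 10 called, and 0 were called when all genes above 0 TPM were tested. Without DMSO replicate 2, 8 of the 10 were called higher (adjusted p of Irgm1 0.0043, Igtp 0.0072, Iigp1 0.0091 and Gbp5 0.0099), beside 11.3% of all genes. That omission raised the calls over all genes from 925 to 2242. After the GC correction, 3 of the 10 were called higher, beside 5.35% of all genes, with a median log2 change of 0.12. Igtp then had an adjusted p of 0.0512 and Gbp4 one of 0.0663. With median-of-ratios scaling in place of TPM as deposited, 0 of the 10 were called.

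**Figure D3:**
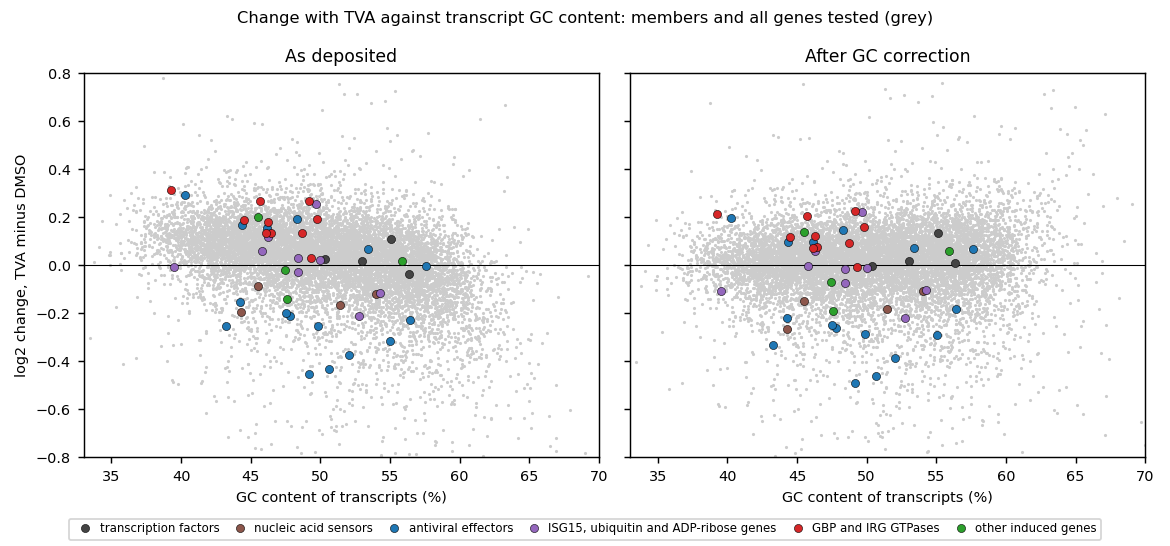
Log2 change (TVA minus DMSO, vertical axis) against the GC content of the transcripts (horizontal axis, %) before and after the GC correction, for the 47 members (coloured by role) and all genes tested (grey, some beyond the vertical limits). Before the correction grey points slope downwards (Spearman -0.401) and the GBP and IRG genes, with a median GC content of 46.3%, lie above 0. After it the median change of the GBP and IRG genes is 0.12.

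**Figure D4:**
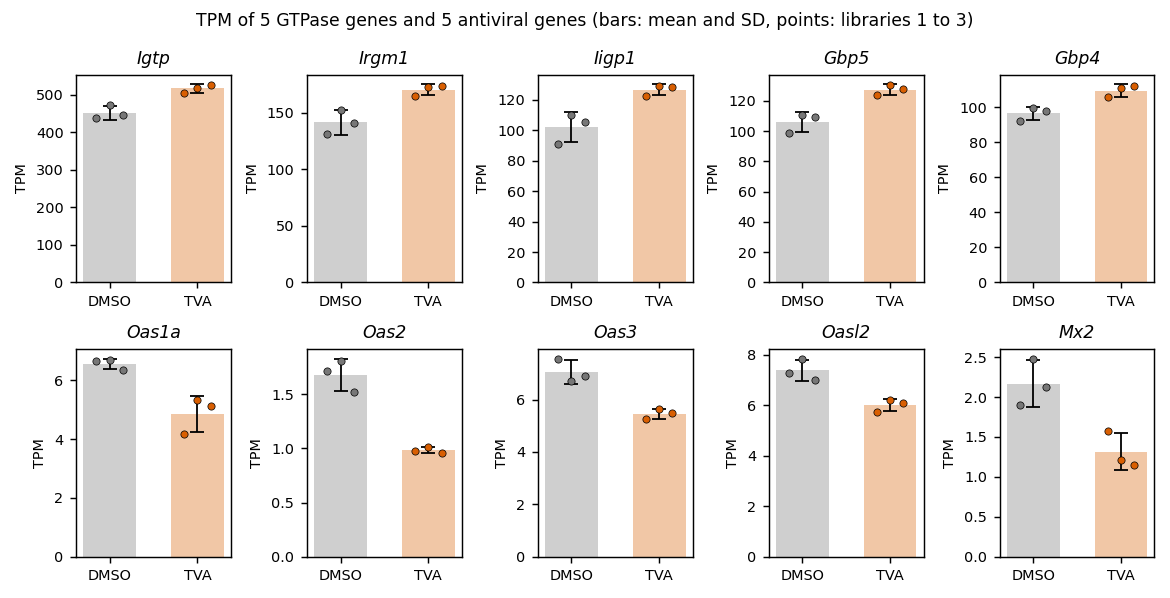
TPM (vertical axes, from 0) of 5 GTPase genes and 5 antiviral genes with DMSO and TVA, the 10 members of these roles that passed the test apart from Samd9l; bars give the mean, error bars the SD and points the 3 libraries of a group in the order of their replicate numbers. The TVA points of Igtp, Irgm1, Iigp1, Gbp5 and Gbp4 lie above all DMSO points, and those of Oas1a, Oas2, Oas3, Oasl2 and Mx2 below.

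The 16 antiviral effectors held the 5 genes that fell. Of the 16, 1 rose, 5 fell and 10 did not pass the test, with a median log2 change of -0.21. The shares that rose and fell were 6.25% and 31.2%, beside 5.28% and 3.23% of all genes tested. Oligoadenylate synthetases (Oas) make a short RNA-like messenger that switches on RNase L, which degrades viral and cellular RNA. The 3 Oas genes among the members fell, and they lie within one stretch of chromosome 5. Of their relatives on the pathway lists, Oas1b had 10.1 to 11.5 TPM with overlapping groups (log2 change -0.02, adjusted p 0.801), Oas1c had 3.55 to 5.05 TPM (-0.18, adjusted p 0.163), and Oas1g was not tested, at 0.13 to 0.34 TPM. These were named after their values were seen. Oas2 had TPM values of 1.71, 1.81 and 1.52 in the DMSO libraries and 0.98, 1.01 and 0.96 in the TVA libraries. It fell by 41.5% in TPM (log2 change -0.43, SE 0.076, adjusted p 0.0208), and the gap of 0.51 TPM between the groups was wider than the range within either. Oas2 met the filter of 1 TPM in 3 libraries through its DMSO values, which favours a fall, since TVA replicates 1 and 3 lay below 1 TPM. Oas3 had TPM values of 7.56, 6.71 and 6.89 in the DMSO libraries and 5.26, 5.65 and 5.48 in the TVA libraries, a log2 change of -0.32 (SE 0.061, adjusted p 0.0259). Oas1a had TPM values of 6.64, 6.67 and 6.36 in the DMSO libraries and 4.16, 5.31 and 5.11 in the TVA libraries, a log2 change of -0.37 (SE 0.083, adjusted p 0.0378). TVA replicate 1 was the lowest of all 6 libraries for Oas1a. Its value is uncertain, because 57.6% of the 50-base stretches of its transcripts also occur in Oas1g.

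Oasl2 and Oasl1 encode proteins related to the synthetases. Oasl2 had TPM values of 7.28, 7.84 and 7.01 in the DMSO libraries and 5.74, 6.21 and 6.10 in the TVA libraries, without overlap. It fell by 0.25 on the log2 scale (SE 0.060, adjusted p 0.0442), and it was the 1 call of the 13 that was lost without DMSO replicate 2 (adjusted p 0.0531). Oasl1 had TPM values of 1.97, 1.19 and 1.61 in the DMSO libraries and 1.13, 1.30 and 1.15 in the TVA libraries. Its groups overlapped, and it did not pass the test (log2 change -0.23, SE 0.12, adjusted p 0.216). The Mx genes encode dynamin-like GTPases that trap viral components. Mx2 had TPM values of 1.90, 2.48 and 2.12 in the DMSO libraries and 1.58, 1.21 and 1.15 in the TVA libraries, and fell by 39.4% in TPM (log2 change -0.45, SE 0.10, adjusted p 0.0415). Mx1 had TPM values of 4.07, 4.64 and 3.77 in the DMSO libraries and 4.05, 3.31 and 3.02 in the TVA libraries, with overlap and an adjusted p of 0.194.

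Ifit proteins bind viral RNA that lacks the cap marks of the host. Ifit1 had TPM values of 9.85, 12.2 and 9.81 in the DMSO libraries and 8.55, 8.68 and 8.84 in the TVA libraries. The groups did not overlap, DMSO replicate 2 was the highest library, and the change did not pass the test (log2 change -0.25, SE 0.081, adjusted p 0.0847). The neighbouring Ifit3 and Ifit2 did not pass it either, with log2 changes of -0.20 and 0.16 and adjusted p of 0.0725 and 0.155. Of the transcript stretches of Ifit3, 51.2% also occur in Ifit3b. Samd9l, which encodes a protein that restricts viral protein synthesis, was the effector that rose. It had TPM values of 17.9, 21.3 and 20.8 in the DMSO libraries and 23.5, 24.9 and 25.7 in the TVA libraries, a rise of 23.4% (log2 change 0.29, SE 0.070, adjusted p 0.0459). Bst2, which encodes tetherin, the protein that holds budding viruses on the cell surface, was the most abundant effector. It had TPM values of 272, 278 and 276 in the DMSO libraries and 277.5, 271 and 274 in the TVA libraries, with full overlap (log2 change -0.005, SE 0.033, adjusted p 0.927). Cmpk2, a nucleotide kinase gene beside Rsad2, had TPM values of 1.78, 1.47 and 1.74 in the DMSO libraries and 1.99, 2.13 and 2.01 in the TVA libraries. Its groups did not overlap and it did not pass the test (log2 change 0.19, adjusted p 0.130). Rsad2 (viperin), Eif2ak2 (the RNA-activated kinase PKR) and Adar (an RNA editing enzyme) had adjusted p of 0.261, 0.159 and 0.381.

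All 5 genes that fell were also called after the GC correction and with median-of-ratios scaling, and all but Mx2 with quantile normalization. With all genes above 0 TPM, Oas2 was the 1 still called, and without any 1 TVA library none was. With the replicate block none of the 5 was called (adjusted p 0.056 to 0.079). After the GC correction, 7 of the 16 effectors (43.8%) were called lower, beside 4.94% of all genes. Ifit1 (adjusted p 0.0362) and Ifit3 (0.0318) were the others beside these 5. All 5 genes that fell had means under 10 TPM, and how many reads stand behind such values is unknown.

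The promoters of the members were searched for the letters of both interferon elements, ISRE and GAS. RefSeq windows from 250 bases before to 50 bases after the transcription start (GRCm38.p6) were matched for 37 of the 48 members. The search covered both strands for ISRE letters (GAAANNGAAA, or TTTCNNTTTC on the other strand) and for GAS letters (TTCNNNGAA, which reads the same on both strands). ISRE letters stood in 19 of the 37 members (51.4%) and in 3.99% of the 27025 genes with a window. GAS letters stood in 11 of the 37 (29.7%) and in 9.55% of all genes. Of the GTPase genes with a window, 7 of 8 held ISRE letters and 4 of 8 held GAS letters. Of the members with a window, ISRE letters stood in 4 of 6 that rose, in 2 of 3 that fell and in 13 of 27 that did not pass the test. Members were listed because interferon induces them, so these shares describe the list and not the response to TVA, and a match of letters is not a binding site.

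The stretches before the start of 4 GTPase genes, of Oas3 and of Isg15 are shown to let a gene that rose, a gene that fell and genes that did not pass the test be compared. Igtp, Irgm1 and Gbp5 rose, Oas3 fell, and Irgm2 and Isg15 did not pass the test. Each is written 5′ to 3′ on the strand of the gene and ends just before the gene, and capitals mark the ISRE and GAS letters. Overlapping matches are counted singly. They lie at chr11:58199376-58199555 (plus strand) for Igtp, chr11:58214797-58214976 (plus) for Irgm2, chr11:48871421-48871600 (minus) for Irgm1, chr3:142496754-142496933 (plus) for Gbp5, chr5:120777685-120777839 (minus) for Oas3 and chr4:156200819-156200998 (minus) for Isg15.
Igtp: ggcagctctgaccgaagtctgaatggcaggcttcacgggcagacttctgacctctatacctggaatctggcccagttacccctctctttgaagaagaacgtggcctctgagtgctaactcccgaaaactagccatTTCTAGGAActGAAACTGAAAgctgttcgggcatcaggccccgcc
Irgm2: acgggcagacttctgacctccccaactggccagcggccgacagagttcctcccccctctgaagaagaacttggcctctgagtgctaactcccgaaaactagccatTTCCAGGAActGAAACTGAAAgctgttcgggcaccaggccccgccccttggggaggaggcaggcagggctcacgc
Irgm1: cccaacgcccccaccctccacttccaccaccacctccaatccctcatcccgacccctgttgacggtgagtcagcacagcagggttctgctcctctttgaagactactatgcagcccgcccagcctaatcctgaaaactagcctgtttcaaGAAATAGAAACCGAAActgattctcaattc
Gbp5: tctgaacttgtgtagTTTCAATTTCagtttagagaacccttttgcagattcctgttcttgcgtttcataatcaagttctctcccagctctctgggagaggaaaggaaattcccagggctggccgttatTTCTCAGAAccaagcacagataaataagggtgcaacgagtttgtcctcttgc
Oas3: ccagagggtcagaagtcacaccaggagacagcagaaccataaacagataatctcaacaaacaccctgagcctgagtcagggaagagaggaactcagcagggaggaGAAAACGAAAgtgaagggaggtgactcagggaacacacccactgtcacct
Isg15: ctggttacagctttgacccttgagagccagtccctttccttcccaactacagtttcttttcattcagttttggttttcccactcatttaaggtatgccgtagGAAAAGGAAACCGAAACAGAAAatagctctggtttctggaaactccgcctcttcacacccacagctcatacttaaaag
Igtp and Irgm2 are neighbours on chromosome 11, and their upstream stretches share a run of 38 identical bases. In both genes the GAS letters begin 11 bases before the ISRE letters, at 45 and 34 bases before the start in Igtp and at 75 and 64 bases before it in Irgm2. Igtp passed the test and Irgm2 did not, and 11.8% of the 50-base stretches of the Igtp transcripts also occur in Irgm2. Irgm1 has a pair of overlapping ISRE matches, at 30 and 24 bases before the start, and Isg15 has 3, at 78, 72 and 66 bases. In Oas3 the ISRE letters begin 75 bases before the start that the window uses, and no GAS letters stand in the window.

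The 9 genes of the ISG15, ubiquitin and ADP-ribose group encode Isg15, a ubiquitin-like tag that is coupled to proteins, with enzymes that attach or remove such tags. Of the 9, 1 rose, 0 fell and 8 did not pass the test, with a median log2 change of 0.02. Trim21, an intracellular antibody receptor and ubiquitin ligase, had TPM values of 18.9, 20.6 and 18.1 in the DMSO libraries and 21.8, 23.8 and 23.6 in the TVA libraries. All TVA values lay above all DMSO values, and the gene rose by 20.3% (log2 change 0.26, SE 0.061, adjusted p 0.0445). Isg15 had TPM values of 30.8, 34.9 and 28.1 in the DMSO libraries and 23.5, 28.7 and 28.3 in the TVA libraries. TVA replicate 1 was the lowest library, the groups overlapped, and the change did not pass the test (log2 change -0.21, SE 0.097, adjusted p 0.175). Usp18, the protease that removes Isg15, and Herc6, a ligase that attaches it, had log2 changes of -0.03 and -0.01 with adjusted p of 0.669 and 0.916. The remaining 5 genes (Trim25, Trafd1, Parp9, Parp14 and Dtx3l) had log2 changes between -0.12 and 0.12 and adjusted p of at least 0.136.

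Of the 4 sensors, which detect viral RNA or Z-form nucleic acid in the cytosol, 0 rose and 0 fell, although their fitted changes were all below 0, with a median of -0.14. Zbp1, the sensor of Z-form nucleic acid, had TPM values of 61.5, 64.5 and 59.9 in the DMSO libraries and 54.3, 54.4 and 56.8 in the TVA libraries. It was the member nearest to the threshold without passing it (log2 change -0.16, SE 0.043, adjusted p 0.0551). Ifih1 (MDA5), an RNA helicase sensor, had TPM values of 8.64, 8.64 and 9.15 in the DMSO libraries and 7.14, 7.93 and 7.63 in the TVA libraries (log2 change -0.20, SE 0.056, adjusted p 0.0658). In neither gene did the groups overlap, and after the GC correction both were called lower (adjusted p 0.0285 for Zbp1 and 0.0145 for Ifih1). Ddx58 (RIG-I) and Dhx58 (LGP2) had adjusted p of 0.275 and 0.322.

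Of the 4 transcription factors, 0 rose and 0 fell. Irf1, a factor that interferon-γ induces directly, had TPM values of 84.4, 90.5 and 84.4 in the DMSO libraries and 95.4, 90.5 and 93.7 in the TVA libraries. The groups were separated by 0.050 TPM only, and the change did not pass the test (log2 change 0.11, SE 0.043, adjusted p 0.133). Stat2 and Irf9, parts of the complex that binds the ISRE, had log2 changes of 0.02 and 0.03 with adjusted p of 0.778 and 0.716. Irf7, which drives type I interferon production, had a log2 change of -0.04 and an adjusted p of 0.553. In all 3 the groups overlapped. Of the 4 other induced genes tested, Sp100, which encodes a scaffold of nuclear bodies, had TPM values of 56.4, 56.4 and 54.3 in the DMSO libraries and 63.1, 64.1 and 65.5 in the TVA libraries. It rose by 15.3% (log2 change 0.20, SE 0.037, adjusted p 0.0227). Ifi35, Xaf1 and Rtp4 did not pass the test (log2 changes 0.02, -0.02 and -0.14, adjusted p 0.748, 0.845 and 0.148).

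**Figure D5:**
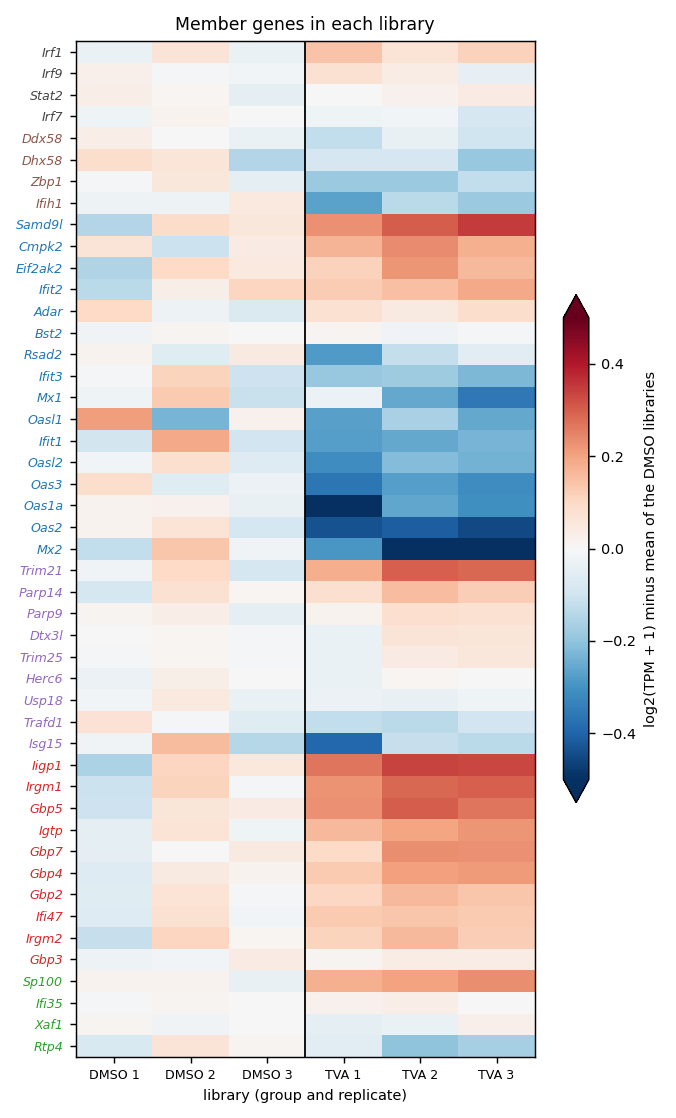
Level of the 47 members tested (rows, coloured by role) in each of the 6 libraries (columns), as log2(TPM + 1) minus the mean of the DMSO libraries; red is above and blue below that mean, and the scale ends at the arrows. The GBP and IRG rows are red in all TVA libraries and palest or blue in DMSO replicate 1, and the rows of the Oas genes and Mx2 are blue in all TVA libraries.

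Other genes of the pathway, from ligands to further targets, were read from the same fit. The lists held 161 further genes, of which 156 were in the table, 122 were tested, 6 rose and 10 fell. These are 4.92% and 8.20% of the 122, and 5.28% and 3.23% of all genes tested were called higher and lower, so as reported the share that rose was near that of all genes. Without DMSO replicate 2, 22 of the 122 were called higher and 14 lower, beside 11.3% and 9.38% of all genes. The share that rose was then above that of all genes. Ifng, which encodes interferon-γ, was the 1 ligand tested of 21. It had TPM values of 1626, 1657 and 1726 in the DMSO libraries and 1726, 1749 and 1737 in the TVA libraries. DMSO replicate 3 and TVA replicate 1 were nearly equal, and the change did not pass the test (log2 change 0.06, SE 0.039, adjusted p 0.330). Of the 20 type I and type III interferon genes, 16 were listed at 0 in every library and the other 4 reached at most 0.17 TPM. The receptor genes Ifnar1, Ifnar2, Ifngr1 and Ifngr2 did not pass the test (log2 changes 0.07, 0.00086, 0.07 and -0.14, adjusted p 0.281, 0.994, 0.199 and 0.164). Il10rb, which encodes the receptor chain that type III interferon shares with interleukin-10, rose by 13.9% (adjusted p 0.0443). Of the 8 genes of the JAK, STAT and IRF list, Irf2, a factor that competes with Irf1 for its sites, was the 1 called (higher by 15.2%, adjusted p 0.0249).

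The 10 negative regulators held 1 call as reported. Without DMSO replicate 2, 1 was called higher and 5 lower, beside 11.3% and 9.38% of all genes. The call as reported was Socs3, an inhibitor of cytokine receptor signalling, which fell by 0.33 on the log2 scale (adjusted p 0.0373). After the GC correction its change was -0.02 (adjusted p 0.887). Socs1, the main inhibitor of interferon signalling, had TPM values of 125.8, 42.7 and 93.4 in the DMSO libraries and 43.9, 40.95 and 41.5 in the TVA libraries. DMSO replicate 2 lay at the level of the TVA libraries, and the change did not pass the test (log2 change -0.90, SE 0.33, adjusted p 0.116). Without DMSO replicate 2, an omission that raised the calls over all genes from 925 to 2242, the adjusted p of Socs1 was 3.0e-04. Of 8 sensing adaptors tested, 0 passed the test.

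Of 90 other interferon-stimulated genes tested, 4 rose and 9 fell, which is 4.44% and 10.0% of the 90. The share that rose was below the 5.28% of all genes, and the share that fell was above the 3.23%. Without DMSO replicate 2, 19 of the 90 were called higher, a larger share than the 11.3% of all genes. In that setting 9 (10.0%) were called lower, beside 9.38% of all genes. Ifitm2, whose product keeps viruses from fusing with endosomal membranes, had TPM values of 124, 135 and 127 in the DMSO libraries and 70.7, 76.6 and 74.0 in the TVA libraries. The groups lay far apart, and it fell by 42.7% (log2 change -0.79, SE 0.047, adjusted p 4.8e-04). This call held without any 1 library (adjusted p at most 0.0081). Its relatives Ifitm1 and Ifitm3 fell by 29.6% and 22.2% (adjusted p 0.0127 and 0.0216). Ube2l6, the enzyme that carries Isg15 to its ligases, had TPM values of 18.9, 19.8 and 19.6 in the DMSO libraries and 13.4, 12.9 and 14.2 in the TVA libraries. It fell by 30.5% (log2 change -0.50, SE 0.050, adjusted p 0.0032), and this call also held without any 1 library (at most 0.0312). Isg20, an RNA exonuclease gene, fell by 49.0% (adjusted p 0.0080), Gbp11, a GBP gene outside the 10 listed, by 28.1% (0.0219), Ifi211 by 29.5% (0.0238), Ly6a (Sca-1) by 19.3% (0.0162) and Lgals3bp by 13.1% (0.0414). The genes that rose were Ms4a4b, a membrane protein of T cells (by 32.2%, adjusted p 0.0267), Slfn2, which keeps T cells quiescent (by 16.1%, 0.0293), Ifi203 (by 16.7%, 0.0482) and Trim5 (by 28.7%, 0.0462). Gbp11 fell while Gbp4 rose, and 5.03% of the 50-base stretches of the Gbp4 transcripts also occur in Gbp11. Of the 16 calls among the pathway genes, those of Ifitm2 and Ube2l6 alone held without each library in turn, and those of Il10rb, Socs3, Ifi203 and Trim5 were lost after the GC correction.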

How the data were processed

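The authors deposited 1 table of TPM per gene symbol for 6 libraries, and the submitters' processing notes name STAR, RSEM and the genome build mm10. How reads were assigned is not given in the sources used here. The deposited TPM had 2 decimals, had 1 total for all libraries and were used as they stood. They keep no depth, so no counting interval is given. The labels name a SMARTER mRNA-Seq kit for the libraries.

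Members, roles, pathway lists, marker lists and tests were chosen with earlier results of these data known. Group and replicate number came from the sample titles. Genes with at least 1 TPM in at least 3 libraries were tested on log2(TPM + 1) with limma 3.58.1 in R 4.3.3 (moderated two-sided test with a variance trend, no block). Benjamini-Hochberg adjustment was made over all genes tested, with a threshold of 0.05. The fit was tested on simulated data. The genes named with full values were members past the threshold, the 8 largest rises and 8 largest falls, the 5 most abundant members, pathway genes past the threshold, and a fixed set of which Ifng, Ifnar1, Ifnar2, Ifngr1, Ifngr2 and Socs1 are reported and 1 gene is not reported here. Other members were named after their values were seen, so that each is accounted for.

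Alternatives were a pseudocount of 0.1, median-of-ratios scaling, a filter at a mean of 10 TPM, no filter beyond 0 TPM, quantile normalization, no variance trend, a replicate block, a GC correction (within each library, deviations of genes from their means were smoothed against transcript GC content from GENCODE vM21 with loess at span 0.5, and the curve was removed) and the omission of each library. Stretches of 50 bases shared between genes were counted in the same transcripts. Promoter windows and gene positions came from RefSeq (GRCm38.p6). Figures were drawn with matplotlib 3.10.9.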

Additional observations from a re-analysis of the deposited data

How the results depend on the processing

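Of the 13 member calls, the pseudocount of 0.1 kept 13, the GC correction 11 and the fit without the variance trend 9. The number of members called was 2 with all genes above 0 TPM, 8 with a mean of at least 10 TPM, 7 with median-of-ratios scaling, 8 with quantile normalization and 2 with the replicate block, while all genes called, 8.51% of those tested as reported, came to 2.95%, 8.04%, 7.01%, 7.13% and 2.01%. Members called higher, 8 as reported, numbered 1 with all genes above 0 TPM, 1 with median-of-ratios scaling, 4 with quantile normalization, 4 without the trend and 2 with the replicate block. Members called lower, 5 as reported, numbered 1 with all genes above 0 TPM, 0 with a mean of at least 10 TPM (which leaves all 5 untested), 0 with the replicate block and 9 with the GC correction. Pathway genes called, 16 as reported, numbered 8 with all genes above 0 TPM and 6 with the replicate block. With 1 library left out, members called ranged from 0 (without any 1 TVA library) to 17 (without DMSO replicate 2), those higher from 0 to 12, those lower from 0 to 5 and pathway genes from 2 to 36. The cause of these losses was not tested.

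The median log2 change of the members, 0.01886 as reported, was 0.08879 with a mean of at least 10 TPM, -0.01709 with median-of-ratios scaling, -0.00157 with quantile normalization and -0.003801 with the GC correction. The median of all genes tested was 0.039, 0.0043, 0.027 and 0.018 as reported and under the last 3 of these. Of 590 values of the 43 named genes under the alternatives, 9 changed sign, all of genes that were not called. Bst2 was at 0.06574 and Ifng at -0.01043 with the GC correction. Ifnar2 was at -0.03521 with median-of-ratios scaling, -0.02365 with quantile normalization and -0.023 with the GC correction. With 1 library left out, Bst2 ranged from -0.01369 to 0.002255 and Ifnar2 from -0.07196 to 0.04719. Libraries of the same replicate number did not deviate together (correlations 0.16, 0.035 and -0.077 for numbers 1, 2 and 3), so the numbers were not taken as pairs. All 5 genes that fell missed the threshold with the replicate block (adjusted p 0.056 to 0.079). Depth is unknown, and the genes that fell have few TPM, so the counting error behind their values cannot be given.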
